A study of Mus musculus with 4 samples.

Results

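The proteasome subunits compared here are the 41 listed genes for the 20S core particle, its testis-specific and immune variants, the 19S cap and the PA28 activator. The choice was by gene symbol, with earlier results of these data known. Of the 41 genes, 40 were paired with a probe set that the platform annotation gives to that gene alone, out of 18193 genes paired in this way. *Psme2* was left out because its 1 probe set is also assigned to a near-identical copy. The testes came from 2 WT and 2 *Ccnyl1*-/- male mice, all C57BL/6, 2 months old and with 1 array per mouse. The *Ccnyl1*-/- mice carry the KO-first allele *Ccnyl1* tm1a(EUCOMM)Wtsi, which holds a LacZ cassette in every cell of the body, and came from heterozygous parents. Whole testis was used, and the lists of markers for spermatocytes (12 genes), round spermatids (10) and elongating spermatids (12) all gave signals of at least 100. In such tissue fewer cells of a type and less RNA per cell cannot be told apart. As a check of the genotype, *Ccnyl1* itself gave 2256 and 2426 in the WT mice and 921 and 969 in the knockouts.

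The proteasome is the protease of the cell that degrades proteins tagged with ubiquitin. Its 20S core is a barrel of stacked rings, in which the alpha subunits (Psma genes) form the gate and the beta subunits (Psmb genes) hold the cutting sites, and its 19S cap binds the tagged protein, removes the ubiquitin, and unfolds and feeds the chain into the core with a ring of ATPases (Psmc genes). Interferon replaces the cutting subunits by *Psmb8*, *Psmb9* and *Psmb10* to form the immunoproteasome, while spermatocytes and spermatids replace *Psma7* by *Psma8* to form the spermatoproteasome. The study examined how the cyclin CCNYL1 bears on the stability of its partner kinase CDK16, with a proteasome inhibitor among its tools. The array comparison bears on a related question, whether the transcripts of the proteasome itself differed between the genotypes.

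The promoters of the cutting subunits *Psmb5* and *Psmb6* and their immune counterparts *Psmb8* and *Psmb9* are shown. These genes are read out side by side below. For *Psmb7* no promoter window was available, and that of its counterpart *Psmb10* is not shown. RefSeq windows of GRCm38.p6 were available for 34 of the 41 genes, and the stretches end at the base before the transcription start, 5′ to 3′ on the strand of the gene. They are *Psmb5* (chr14:54617996-54618145, minus strand), *Psmb8* (chr17:34198045-34198194, plus strand), *Psmb6* (chr11:70525207-70525356, plus strand) and *Psmb9* (chr17:34187331-34187555, minus strand). The last is the whole 225 bases between the starts of *Psmb9* and *Tap1*, the gene of a peptide transporter that is transcribed away from it. Capitals mark TGACNNNGC, the letters read by the CNC-sMaf factors that drive proteasome genes, TTCNNNGAA, read by STAT factors, the box CCAAT, the GC box GGGCGG, the letters CCGGAAG, read by ETS factors, and the box TATAAA, on either strand.
Psmb5: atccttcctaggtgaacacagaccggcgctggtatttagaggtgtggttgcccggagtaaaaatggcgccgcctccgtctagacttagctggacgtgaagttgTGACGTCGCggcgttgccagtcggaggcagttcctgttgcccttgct
Psmb8: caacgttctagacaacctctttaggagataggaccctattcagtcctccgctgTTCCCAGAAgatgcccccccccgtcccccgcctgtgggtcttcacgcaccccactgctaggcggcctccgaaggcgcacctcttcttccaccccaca
Psmb6: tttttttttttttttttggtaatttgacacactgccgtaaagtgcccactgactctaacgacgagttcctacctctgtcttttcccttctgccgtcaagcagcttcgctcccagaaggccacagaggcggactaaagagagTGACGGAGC
Psmb9: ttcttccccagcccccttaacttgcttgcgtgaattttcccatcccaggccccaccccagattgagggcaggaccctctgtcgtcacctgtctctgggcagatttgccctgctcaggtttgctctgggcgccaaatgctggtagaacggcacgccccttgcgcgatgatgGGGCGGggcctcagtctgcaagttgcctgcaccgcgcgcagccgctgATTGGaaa

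TGACNNNGC was found in *Psmb5* and *Psmb6*, and TTCNNNGAA in *Psmb8*. Counted over whole windows (250 bases before and 50 after the start), TGACNNNGC lay in 5 of the 37 of the subunits (13.5%) and in 12.4% of all 32851. CCGGAAG lay in 12 of the 37 windows, those of 11 genes (32.4%), and in 8.86% of all windows. GGGCGG lay in 59.5% against 35.7%, and CCAAT in 35.1% against 37.4%. The windows of the subunits had a median GC content of 57.3%, and all windows had 52.7%. The strict form TGACTCAGC and the cAMP element TGACGTCA lay in 0 of the 37, where 0.454% and 1.79% of all windows hold them. The other letters searched were TATAAA (10.8% of the subunits' windows against 13.6% of all), TTCNNNGAA (5.41% against 8.30%), the interferon element (10.8% against 3.44%), AACNGNC (40.5% against 32.8%), TGACNNNGC ending in a further A (2.70% against 3.04%) and TGANNNNGC (56.8% against 41.3%). The CNC-sMaf forms overlap, since TGANNNNGC includes TGACNNNGC, which includes the remaining forms. These 12 motifs were searched on both strands, and a match is a run of letters, not a bound site. To show CCGGAAG in place, the 150 bases before the starts of 2 cap subunits that hold it follow, *Psmd2* (chr16:20651502-20651651, plus strand) and *Psmd6* (chr14:14120946-14121095, minus strand), with the same letters in capitals.
Psmd2: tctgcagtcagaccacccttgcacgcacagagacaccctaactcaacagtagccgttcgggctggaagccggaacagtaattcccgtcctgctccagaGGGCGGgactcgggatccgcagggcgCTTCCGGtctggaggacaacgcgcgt
Psmd6: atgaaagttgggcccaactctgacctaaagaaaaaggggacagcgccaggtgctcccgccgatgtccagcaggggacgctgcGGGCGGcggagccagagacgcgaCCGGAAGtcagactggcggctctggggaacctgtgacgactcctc

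No transcript of the proteasome was called different in *Ccnyl1*-/- testes. The mean signal of a subunit in *Ccnyl1*-/- testes lay between 76.2% (*Psmb9*) and 111% (*Psmd5*) of its WT mean. None of the 40 subunits passed the test (limma, Benjamini-Hochberg adjusted p under 0.05 over all 32438 tested probe sets, of which 0.0123% passed), and the lowest adjusted p among them was 0.768, for *Psma6*. The log2 fold changes (knockout over WT, on log2(signal + 16)) had a median of -0.02 over the subunits, with 17 positive and 23 negative. Over the 15268 tested genes, each taken at its brightest probe set, the median was 0.00, and 50.1% were negative. The median size of the difference, whatever its sign, was 0.06 for the subunits and 0.11 for all genes.

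At an unadjusted p under 0.05, 2 subunits were lower, *Psma6* and *Psmc3*, and 0 were higher, where 3.45% of all genes were lower and 2.85% higher. With the t-test that the methods name, 3 other subunits had an unadjusted p under 0.05, and none passed after adjustment. They were *Psmd1*, which was higher, and *Psmd8* and *Psmd13*, which were lower. With eBayes lacking the trend, 0 of the 40 subunits had an unadjusted p under 0.05. Both knockouts lay below both WT mice at 9 subunits, an order that 18.3% of all genes showed, and above them at 5, an order that 17.7% showed. The counts of subunits are close to these backgrounds. With arrays scaled to one median, which moved the median of all genes to -0.08, 36 of the 40 subunits were negative. Without WT replicate 1, 22 were positive and 18 negative.

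The intervals, from the fit with the trend at the deposited scaling, set how large a difference could have been missed under these settings. They do not cover the choice of scaling. With arrays scaled to one median, the median over the subunits was -0.09, against -0.02 here. For 38 of the 40 subunits the 95% interval lay within 1.5-fold either way, where 60.0% of all genes did. Brightness goes with this: the subunits had a median of mean signals of 2683 and all genes 387, and among the 4537 genes whose mean reached 1000, 97.9% had intervals within 1.5-fold. The exceptions to 1.5-fold were *Psmb8* and *Psmb9*, the dimmest subunits. Mice of 1 genotype differed by a median SD of 0.06 on the log2 scale over the subunits and 0.13 over all genes.

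**Figure D1:**
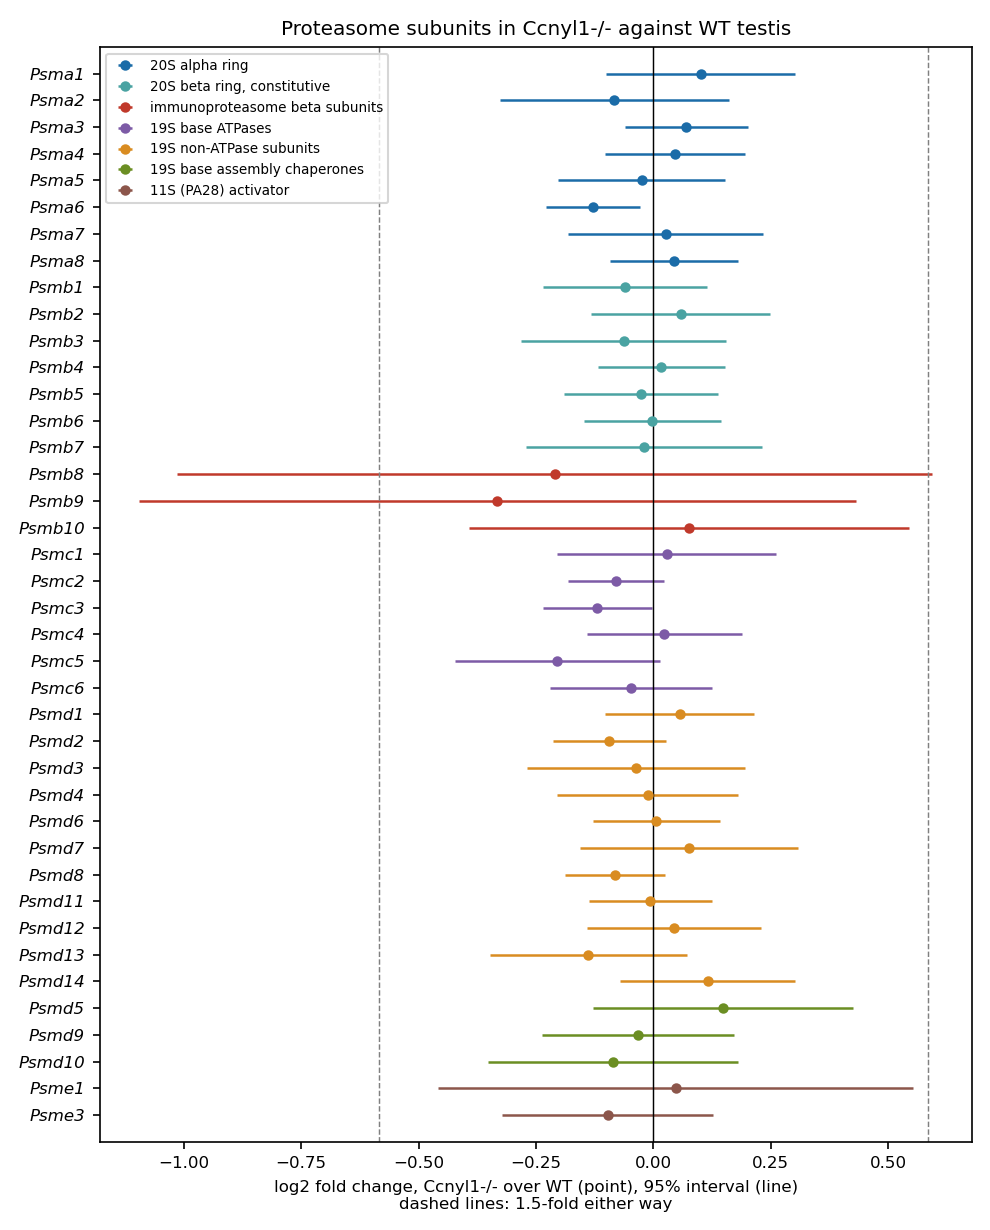
Difference between knockout and WT testes as a log2 fold change (point) with its 95% interval from limma (line) for 40 proteasome subunits, coloured by their place in the complex. The intervals of *Psma6* and *Psmc3* lie below 0 before adjustment, and those of *Psmb8* and *Psmb9* reach beyond the dashed lines at 1.5-fold.

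The 8 alpha subunits, which gate the core, had a median log2 fold change of 0.04, with 5 positive and 3 negative. *Psma8*, the alpha subunit of the spermatoproteasome, had signals of 5804 and 6151 in WT and 6024 and 6299 in *Ccnyl1*-/- testes, and the genotypes overlapped. The log2 fold change was 0.04 (standard error 0.06, 95% interval -0.09 to 0.18, adjusted p = 0.932 from limma). *Psma7*, the subunit whose place it takes, had 1205 and 1168 in WT and 1224 and 1193 in *Ccnyl1*-/- testes. These overlapped too, with a log2 fold change of 0.03 (95% interval -0.18 to 0.23, adjusted p = 0.978 from limma). The spermatocyte markers, from the cells in which *Psma8* comes on, had a summed signal of 57514 and 59624 in WT and 60182 and 59713 in *Ccnyl1*-/- testes. The brightest of them was *Pgk2*, with a mean signal of 17223. Of the 12 markers 7 were positive and 5 negative. Among them *Dmc1* (-0.64) was lower and *Sycp3* (0.17) higher, both without overlap, and none passed the test.

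*Psma6*, an alpha subunit of every proteasome, had signals of 21089 and 20133 in WT and 18491 and 19192 in *Ccnyl1*-/- testes. Both *Ccnyl1*-/- mice were below both WT mice, and the mean was 91.4% of WT (log2 fold change -0.13, 95% interval -0.23 to -0.03, unadjusted p = 0.0173 from limma). Its 3 other tested probe sets had log2 fold changes of -0.07, -0.57 and 0.10. The probe set at -0.57 had 368 and 430 in WT and 159 and 430 in *Ccnyl1*-/- testes, so that 1 mouse set its value. *Psma1* had 1371 and 1432 in WT and 1464 and 1543 in *Ccnyl1*-/- testes, without overlap (0.10, adjusted p = 0.894 from limma). Its other tested probe sets, both dimmer, were negative and reached -0.63. The probe set at -0.63 had 58.3 and 49.3 in WT and 54.2 and 12.9 in *Ccnyl1*-/- testes, so that 1 mouse set this value too.

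The 7 constitutive beta subunits showed the narrowest range of the groups with more than 3 members, from -0.06 to 0.06, with a median of -0.02 and with the genotypes overlapping at each of them. The cutting subunits are among them. *Psmb5*, which cuts after hydrophobic residues, had 3280 and 3146 in WT and 3263 and 3046 in *Ccnyl1*-/- testes (log2 fold change -0.03, 95% interval -0.19 to 0.14). *Psmb6*, which cuts after acidic residues, had 6016 and 5699 in WT and 5629 and 6073 in *Ccnyl1*-/- testes (0.00, -0.15 to 0.14). *Psmb7*, which cuts after basic residues, had 1372 and 1581 in WT and 1561 and 1350 in *Ccnyl1*-/- testes (-0.02, -0.27 to 0.23). For each of the 3, the mice of a genotype differed by more than the means of the genotypes did. The farthest of the group were *Psmb3* (-0.06), with 2288 and 1948 in WT and 1976 and 2065 in *Ccnyl1*-/- testes, and *Psmb1* (-0.06), with 2735 and 2686 against 2713 and 2487.

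The immune counterparts were dim in these testes, and *Psmb8* and *Psmb9* had the widest intervals of the 40 subunits. *Psmb8*, the counterpart of *Psmb5*, had signals of 62.3 and 46.2 in WT and 40.6 and 48.2 in *Ccnyl1*-/- testes, with overlap. Its log2 fold change of -0.21 had a 95% interval from -1.01 to 0.59 (adjusted p = 0.95 from limma). *Psmb9*, the counterpart of *Psmb6*, had 101 and 67.4 in WT and 80.9 and 47.7 in *Ccnyl1*-/- testes. This was the largest difference of the 40 subunits, -0.33, yet the genotypes overlapped and its interval ran from -1.09 to 0.43 (adjusted p = 0.902 from limma). *Psmb10*, the counterpart of *Psmb7*, had 178 and 183 in WT and 226 and 161 in *Ccnyl1*-/- testes, and a log2 fold change of 0.08 (-0.39 to 0.54). The WT mice lay between the *Ccnyl1*-/- mice. At these signals a difference within the intervals of *Psmb8* and *Psmb9* was not detectable.

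*Tap1*, which shares its upstream sequence with *Psmb9*, had 58.7 and 46.4 in WT and 64.6 and 43.7 in *Ccnyl1*-/- testes (log2 fold change 0.02). In both genes, as in *Psme1* below, replicate 1 was above replicate 2 in both genotypes. The tested genes of the interferon response and of antigen processing, 14 with *Tap1* among them, had 8 positive and 6 negative values (median 0.02) and none passed. The farthest were *Tap2*, the partner of *Tap1* (0.44), with 94.0 and 65.9 against 112 and 114, and *Irf8*, a transcription factor of myeloid cells (0.41), with 107 and 102 against 131 and 159. Of the macrophage and MHC class II markers, which come from cells that carry the immunoproteasome, 14 were tested and 10 were negative (median -0.10). Summed, they gave 16590 and 15985 in the WT mice and 14469 and 16094 in the knockouts, most of it from *Aif1*. The mean signal of *Aif1* was 11821, where that of the next brightest marker, *Mrc1*, was 828. Whether *Aif1* reads macrophages in these testes was not tested. The other 13 summed to 4809 and 3822 in the WT mice and 3822 and 3401 in the knockouts. Among these 13, *Lyz2* had 1228 and 565 in WT and 603 and 494 in the knockouts, so that 1 WT mouse stood apart. None of the 14 markers passed the test. The lowest unadjusted p-values were those of *H2-Aa*, an MHC class II chain (-0.62, unadjusted p = 0.00176 and adjusted p = 0.645 from limma), and *Cd14*, a receptor of myeloid cells (-0.52, unadjusted p = 0.0445 and adjusted p = 0.816 from limma), both without overlap. Of the 4 positive markers, *Fcer1g* (0.45) was likewise without overlap. The others were *H2-Eb1* (0.30), *Tyrobp* (0.21) and *Cd74* (0.10). Of 7 lymphocyte markers, 4 had mean signals under 32, and the sums were 287 and 276 for WT mice against 315 and 242 for knockouts. The part of these cells in the values of *Psmb8* and *Psmb9* was not tested.

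**Figure D2:**
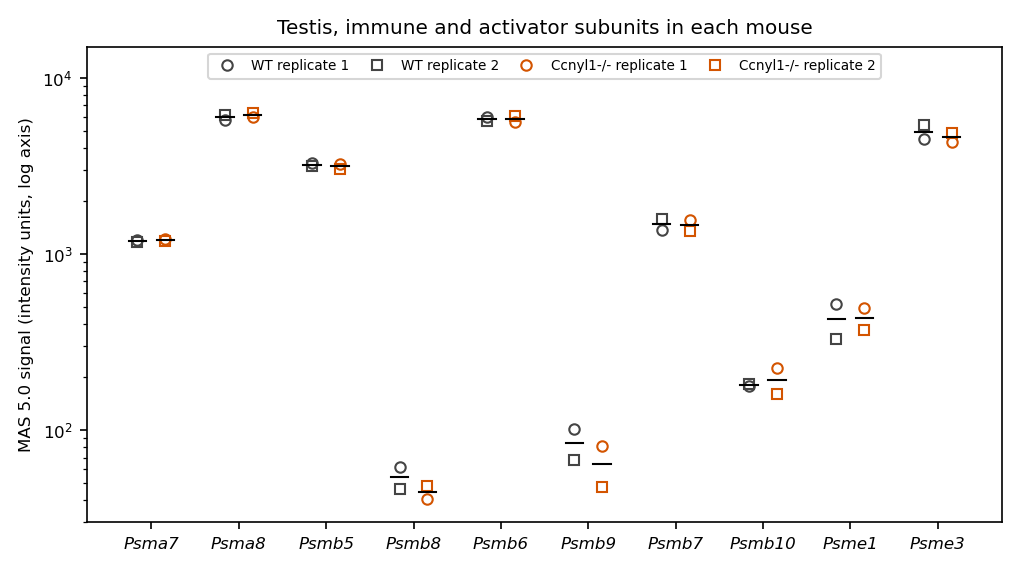
MAS 5.0 signals (intensity units, log axis) of 10 subunits in each mouse, with circles for replicate 1, squares for replicate 2 and a short line for the mean of 2 mice. Each subunit is placed beside its counterpart where it has one, and the genotypes overlap at every subunit drawn; heights of different genes come from different probes and are not compared.

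The 11S activator PA28 opens the core without ubiquitin, with *Psme1* and *Psme2* forming the ring in immune cells and the cytoplasm and *Psme3* the ring in the nucleus. *Psme1* had 521 and 332 in WT and 496 and 373 in *Ccnyl1*-/- testes. Replicate 1 was above replicate 2 in both genotypes, by more than the genotypes differed, and the log2 fold change was 0.05 (95% interval -0.46 to 0.55, adjusted p = 0.987 from limma). The summed signal of 5 Leydig cell markers had the same order, with 7149 and 3935 in WT and 9293 and 5220 in *Ccnyl1*-/- testes. Most of the sum came from *Cyp17a1*, and 3 of the 5 markers had this order one by one, the exceptions being *Star* and *Hsd3b1* in the knockouts. This order was not particular to Leydig cells. The summed markers of spermatogonia, round spermatids, peritubular myoid cells and lymphocytes also had it, as did those of macrophages without *Aif1*. The sums of the other cell lists, among them spermatocytes, elongating spermatids and Sertoli cells, did not. The part of any of these cells in the signal of *Psme1* was not tested. *Psme3* had 4493 and 5436 in WT and 4348 and 4903 in *Ccnyl1*-/- testes (-0.10, -0.32 to 0.13). In this gene replicate 2 was the higher one in both genotypes. Over the 40 subunits, 15 were higher in both mice numbered 1 and 11 in both mice numbered 2, where 27.3% and 24.5% of all genes were.

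The 6 ATPases of the cap, which unfold the substrate, had a median log2 fold change of -0.06, with 4 negative and 2 positive, and at the 4 negative ones the genotypes did not overlap. That order was shown by 18.3% of all genes and by 27.6% of the genes whose mean signal reached 1000, as those of all 6 ATPases did. *Psmc5* had 3217 and 3727 in WT and 2812 and 3208 in *Ccnyl1*-/- testes. The higher *Ccnyl1*-/- mouse lay just below the lower WT mouse, and the log2 fold change was -0.20 (standard error 0.10, 95% interval -0.42 to 0.01, adjusted p = 0.828 from limma). *Psmc3* had 14463 and 15275 in WT and 13290 and 14092 in *Ccnyl1*-/- testes, a log2 fold change of -0.12 (95% interval -0.24 to 0.00, unadjusted p = 0.0455 and adjusted p = 0.816 from limma). *Psmc2* had 20337 and 20424 in WT and 18655 and 19935 in *Ccnyl1*-/- testes (-0.08). A second probe set of *Psmc2* had 13603 and 13773 in WT and 12579 and 12684 in *Ccnyl1*-/- testes, again without overlap (-0.12, adjusted p = 0.797 from limma). *Psmc6* was the last of the 4, at -0.05, and its second probe set went the other way, at 0.32, with 394 and 381 in WT and 464 and 515 in *Ccnyl1*-/- testes (adjusted p = 0.81 from limma). *Psmc1* (0.03) and *Psmc4* (0.02) overlapped between the genotypes.

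Among bright genes of the array more were negative than positive. Of the 1122 genes whose mean signal reached 5000, 70.6% were negative, with a median of -0.04, and at 38.1% both knockouts lay below both WT mice. Of the 11 subunits as bright, 7 were negative (median -0.01, against -0.02 for the 29 dimmer subunits), with *Psma6*, *Psmc2*, *Psmc3*, *Psmd2* and *Psmd8* as the 5 whose genotypes did not overlap on the lower side. With quantile normalization, which equalises the distribution of the arrays, 20 of the 40 subunits were positive and 20 negative.

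**Figure D3:**
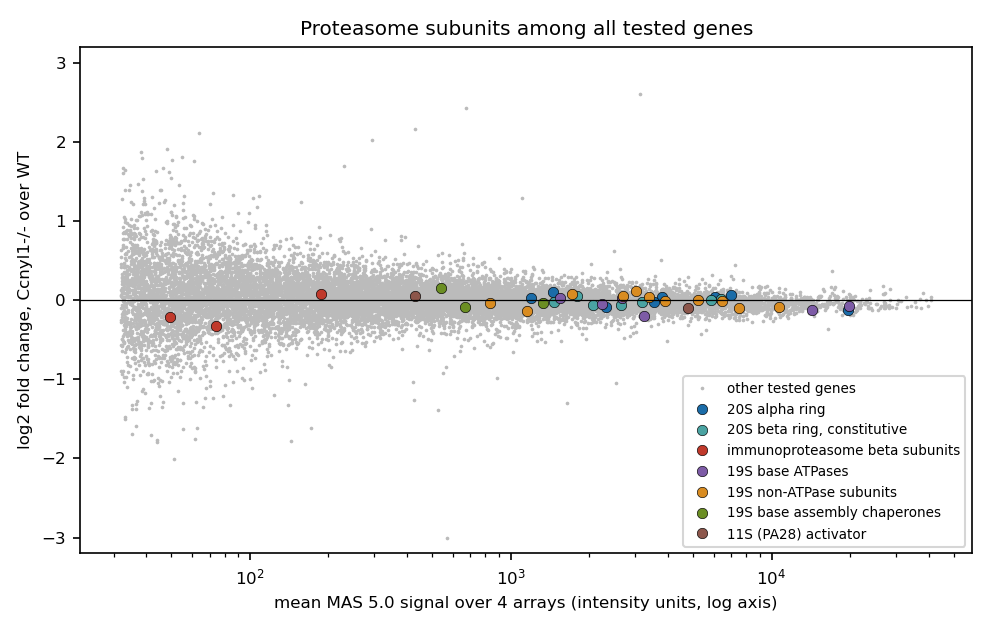
Knockout against WT difference (log2 fold change) plotted on the mean MAS 5.0 signal of the 4 arrays (log axis), 1 point per tested gene, with the proteasome subunits in colour. The subunits lie within the band of the other genes at every brightness, and the band narrows as the signal grows.

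The 11 other subunits of the cap, which form its base and lid, had a median log2 fold change of -0.01, with 5 positive and 6 negative. *Psmd14*, the metalloprotease that removes ubiquitin from the substrate, had 2742 and 3081 in WT and 3256 and 3046 in *Ccnyl1*-/- testes. One *Ccnyl1*-/- mouse lay between the WT mice, and the log2 fold change was 0.12 (95% interval -0.07 to 0.30, adjusted p = 0.869 from limma). *Psmd4*, a receptor for ubiquitin chains, had 4186 and 3685 in WT and 4100 and 3700 in *Ccnyl1*-/- testes (-0.01). *Psmd13*, a lid subunit, had 1228 and 1195 in WT and 1087 and 1111 in *Ccnyl1*-/- testes, without overlap (-0.14, adjusted p = 0.861 from limma). Its other probe sets had -0.10 and 0.16, so that the gene has no single sign. *Psmd2* and *Psmd8* were at -0.09 and -0.08 without overlap between the genotypes, *Psmd3* at -0.04 and *Psmd1* at 0.06 likewise. *Psmd7* was at 0.08, *Psmd12* at 0.04, *Psmd6* at 0.01 and *Psmd11* at -0.01, and these overlapped.

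The 3 chaperones that build the base of the cap had 1 positive and 2 negative values. *Psmd5* had 520 and 506 in WT and 596 and 545 in *Ccnyl1*-/- testes, the highest log2 fold change of the 40 subunits, 0.15 (95% interval -0.13 to 0.43, adjusted p = 0.885 from limma). Both *Ccnyl1*-/- mice were above both WT mice. *Psmd9* had 1342 and 1343 in WT and 1271 and 1354 in *Ccnyl1*-/- testes (-0.03), and *Psmd10* had 731 and 649 against 656 and 641 (-0.09). The remaining alpha subunits were *Psma3* (0.07) and *Psma4* (0.05), whose genotypes did not overlap, and *Psma2* (-0.08) and *Psma5* (-0.03), which did overlap. Of the remaining beta subunits, *Psmb2* was at 0.06 and *Psmb4* at 0.02, and a second probe set of *Psmb4* had 4069 and 4498 in WT and 4631 and 5049 in *Ccnyl1*-/- testes (0.18, unadjusted p = 0.046 and adjusted p = 0.816 from limma).

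Several probe sets read many of these genes. The 40 subunits have 81 probe sets, of which 70 had a mean signal of at least 32 and were tested, and 18 subunits had more than 1 tested. For 6 of the 18 all probe sets had 1 sign, and for 12 they had both. None of the 30 that are not the brightest of their gene passed the test, and 3 had an unadjusted p under 0.05. *Psmd11* had 6 tested probe sets, all negative, from -0.72 on the dimmest to -0.01 on the brightest. The dimmest had 43.6 and 48.4 in WT and 48.3 and 6.14 in *Ccnyl1*-/- testes, so that 1 mouse set its value. The second probe set of *Psmd6* differed between mice rather than genotypes, with 3526 and 5131 in WT and 3847 and 5613 in *Ccnyl1*-/- testes, while its brightest had 5304 and 5080 in WT and 5162 and 5268 in *Ccnyl1*-/- testes.

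Genes that act around the proteasome were not called different either. Of 44 tested genes in 7 lists, 25 were positive and 19 negative, with a median of 0.03, and none passed the test. *Psme4*, the activator PA200 that acts in spermatids on acetylated histones, had 15549 and 16082 in WT and 14967 and 14712 in *Ccnyl1*-/- testes, without overlap (-0.09, adjusted p = 0.829 from limma). *Psmf1*, an inhibitor of the core, had -0.08. The core chaperones had 3 positive and 2 negative values, with *Pomp*, which matures the core, at 0.07, *Psmg2* at 0.11 and *Psmg3* at -0.27. *Psmg3* had 521 and 503 in WT and 401 and 446 in *Ccnyl1*-/- testes, without overlap (adjusted p = 0.83 from limma). The deubiquitinases and ligases that bind the cap were all slightly positive, from 0.03 for *Usp14* through 0.04 for *Uchl5* to 0.07 for *Ube3a*, and none of the 4 passed.

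Of 8 shuttle and unfoldase genes, which bring tagged proteins to the cap, 6 were negative and 2 positive. The farthest were *Nsfl1c*, a cofactor of the unfoldase VCP (-0.34), and *Ufd1*, another (0.10). *Nsfl1c* had 938 and 1449 in WT and 904 and 935 in *Ccnyl1*-/- testes, so that 1 WT mouse stood apart from the other 3 mice. *Nfe2l1*, the CNC factor that raises proteasome genes when the enzyme is short, had 884 and 810 in WT and 974 and 857 in *Ccnyl1*-/- testes (0.11, adjusted p = 0.908 from limma). Its relative *Nfe2l2* had 0.23, and *Ngly1*, the glycanase that activates NFE2L1, had -0.12. Of the ubiquitin genes and E1 enzymes only *Uba6* (-0.09) and *Uba3* (0.04) had a probe set of their own.

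**Figure D4:**
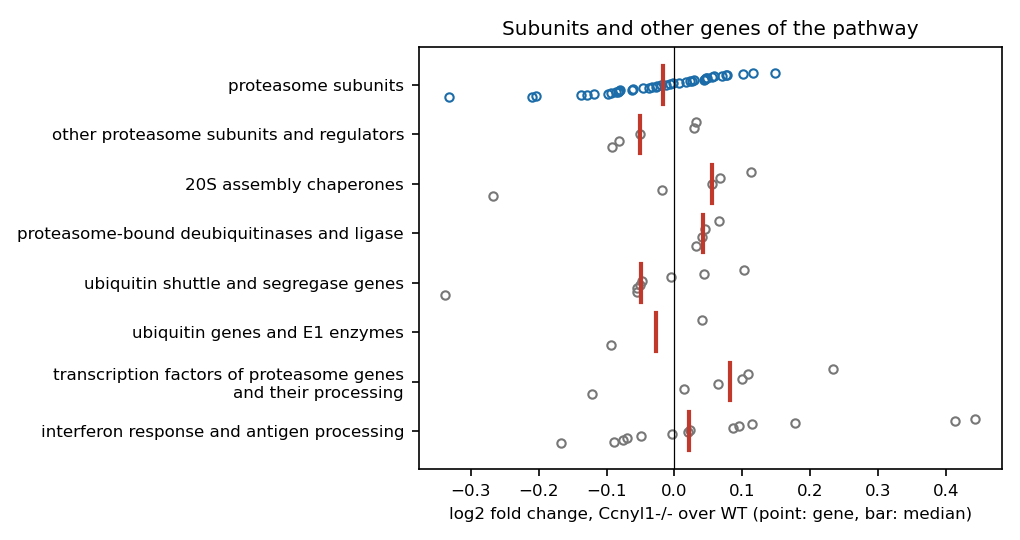
Knockout against WT differences (log2 fold change) of the 40 proteasome subunits and for 7 lists of other genes of the pathway, 1 point per tested gene, with the median as a bar. The medians lie between -0.05 and 0.08, and the widest values belong to *Tap2* and *Irf8* on the right and to *Nsfl1c* and *Psmb9* on the left.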

How the data were processed

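RNA of whole testis from 2 WT and 2 *Ccnyl1*-/- mice was hybridised to Affymetrix GeneChip Mouse Genome arrays, 1 per mouse. The intensity values deposited by the authors are MAS 5.0 signals on a linear scale. Per the methods, default settings and global scaling were used; each array is processed alone, and the trimmed mean of each deposited array is 500.0, whereas the methods give a target of 100. The offset and the minimum signal below are on the deposited scale. Detection calls were not used here. Gene symbols of probe sets came from GEO's platform annotation, and the probe set of highest mean signal stood for a gene. Signals were analysed as log2(signal + 16) in R 4.3.3 with limma 3.58.1 (lmFit, eBayes with a trend on the mean), with genotype as the only term. The 32438 probe sets with a mean signal of at least 32 entered, with Benjamini-Hochberg adjustment over all of them. Precision is limited by the number of arrays, 2 in each genotype. The fit was run on simulated data drawn from its own model. This checks the code but cannot show whether the assumptions of the model hold for these arrays.

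The members and gene lists were chosen with earlier results of these data known. The genes named are all 40 subunits, with each mouse's signal for *Psma7*, *Psma8*, the cutting subunits and their immune counterparts, *Psme1*, *Psme3*, the 10 subunits with the largest difference and the farthest 2 of most groups; of the other lists, the 2 farthest and some set genes. *Tap1*, *Psmd4*, *Psmd6* and other probe sets were added after their values were seen. *Adrm1*, in the set of genes to be named, has no probe set of its own.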

Additional observations from a re-analysis of the deposited data

How the results depend on the processing

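No proteasome subunit passed the test under any alternative run: no offset or 32, no minimum signal or 100, arrays scaled to one median or quantile-normalized, a robust eBayes or one lacking the trend, the replicate block, the methods' t-test, only probe sets lacking the suffixes _x_at, _s_at or _a_at, genes averaged over their probe sets, a trimmed mean of 100, and leaving out each mouse. The median of the subunits was -0.094 with arrays scaled to one median (-0.0755 over all genes) and ran from -0.0367 to 0.0052 without 1 mouse; the sign of the value turned without 1 mouse for 19 subunits and held for 21. Split at a mean signal of 5000, chosen after the values were seen, it was -0.02 below and -0.01 above. Over all probe sets, 4 passed. With arrays scaled to one median 7 did, and without the trend or with the methods' t-test 0 (1906 and 1900 at an unadjusted p under 0.05). Without 1 mouse, which assumes that the lone mouse varies like the other genotype, it was 57 and 47 without WT replicate 1 and 2, and 11 and 14 when knockout replicate 1 or 2 was dropped. Under the replicate block 14 passed, none of them a subunit. The labels give only a replicate number and name no batch or litter. The differences between replicates 1 and 2 correlated at 0.01 between the genotypes across probe sets. Such a correlation cannot show whether mice with the same number were handled together. Dim signals limit *Psmb8* and *Psmb9*.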
